A study of Mus musculus with 4 samples.

Results

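Meg3, Rian and Mirg are noncoding RNA genes of the imprinted Dlk1-Dio3 domain on mouse chromosome 12. They were examined here through the RNA that was crosslinked to the zinc finger protein YY1 in nuclei of mouse embryonic stem cells. The members were all YY1 peaks that shared at least 1 base with mm9 positions 110760000 to 111020000 of chromosome 12, a window of 260 kb that takes in the maternally expressed noncoding part of the domain. There were 16 such peaks among the 12053 of the library, 0.133% of all, and all 16 lay on the plus strand. The members were chosen by the positions of the deposited peaks, in a region picked with its peaks known, so their number and place are given as a description without a test.

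The Dlk1-Dio3 domain is read from one parental chromosome or the other depending on the gene. Dlk1, Rtl1 and Dio3 make protein and are expressed mainly from the paternal copy. Meg3, also called Gtl2, Rian and Mirg make no protein and are expressed from the maternal copy, where an unmethylated control region upstream of Meg3 keeps them active. Meg3 is a long noncoding RNA kept largely in the nucleus. Rian is the host transcript of a cluster of small nucleolar RNAs (snoRNAs) of the C/D box class, which guide methylation of other RNAs. Mirg is the host transcript of many microRNAs (miRNAs). In pluripotent stem cells the expression of these RNAs varies with the methylation state of the control region, and lines in which they are silenced contribute poorly to mice.

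In CLIP-seq, a protein is fixed to its RNA with ultraviolet light, purified, and the attached RNA is sequenced. The cells made the biotin ligase BirA and BioYY1, a YY1 that BirA labels with biotin, and they grew on irradiated mouse embryonic fibroblasts. They were crosslinked at 254 nm, and YY1 with its RNA was taken from lysed nuclei on streptavidin beads. Of the 4 libraries of the series, 1 per group, those of OCT4 and of the BirA-only cells that served as controls for YY1 and OCT4 were not used here. For YY1 there were 2 lists of peaks, 1 per genome strand, holding 6148 plus-strand and 5905 minus-strand peaks. The lists give a start and an end and no read count, so the depth is unknown, the width of a peak is its only measure, and no p-value can be given. How much of any peak the control would also show was not analysed here. Whether all 16 peaks came from the stem cells and none from the fibroblasts was not tested, since the lists hold no value that tells the cell types apart.

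All positions of peaks are 1-based mm9 coordinates. The gene table used here belongs to another build, GRCm38, and served only for gene names and their order along the chromosome. It lists Dlk1, Meg3, Rtl1, Rian, Mirg and Dio3 in that order. Between Meg3 and Rian it lists 17 miRNA genes and the protein-coding Rtl1. Between the starts of Rian and Mirg it lists 19 snoRNA genes and 33 miRNA genes. The only gene position on mm9 was the approximate start of Meg3, near 110779200, so peaks are placed by their distance from that start and none is assigned to Rian, to Mirg or to a single snoRNA or miRNA.

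The promoter of Meg3 is shown because the peaks of the domain begin after it and because its sequence can be read for the DNA motif of YY1. The window runs from 250 bases before to 50 bases after the annotated start (RefSeq, GRCm38.p6, chr12:109540746-109541045, plus strand; these coordinates are not comparable with the mm9 positions of the peaks). Capitals mark ATGGCGGC, a long form of the ATGGC core that YY1 recognises in DNA.

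Meg3 promoter: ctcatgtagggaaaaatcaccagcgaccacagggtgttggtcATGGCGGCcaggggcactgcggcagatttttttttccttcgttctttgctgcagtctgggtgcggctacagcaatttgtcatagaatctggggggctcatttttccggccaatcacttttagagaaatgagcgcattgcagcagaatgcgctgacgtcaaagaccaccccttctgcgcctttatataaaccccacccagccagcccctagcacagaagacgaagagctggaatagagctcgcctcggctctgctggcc

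The motif ATGGCGGC begins at base 43 of this window, 208 bases before the start. Both strands were searched, and the long form contains the core. The long form is in 2.24% of the 32851 promoter windows of the RefSeq table, and the core ATGGC in 40.5%. The window of Rian has the core 1 time and no long form, and the window of Mirg has neither. A second annotated Meg3 window has neither as well. The long form was chosen after the Meg3 sequence had been read. On the mm9 side, the matching stretch around the approximate Meg3 start had 0 peaks of either strand, and there were also 0 within 3000 bases of it on either side. With 0.241 plus-strand peaks per 100 kb on the autosomes and chromosome X, most stretches this short hold none. The share of other promoters with a peak was not computed, so the 0 is no result about this promoter. The first peak began 3262 bases after this approximate start, just past the limit. A match is a description of the DNA letters and was not measured as binding, and these lists report RNA.

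The first peak of the domain was the widest plus-strand peak of the whole library. It ran from 110782462 to 110788539, was 6078 bases wide and began 3262 bases (3.26 kb) after the Meg3 start. It ranked 1 by width among the 6148 plus-strand peaks and 4 among all 12053 peaks. It was 5.91 times as wide as the next widest peak of the domain and made up 54.9% of the 11069 bases that peaks covered there. The second peak, from 110804305 to 110805333, was 1029 bases wide and began 25.1 kb after the Meg3 start. These first 2 peaks together held 64.2% of the covered bases, and no peak followed for the next 68755 bases, the longest gap of the domain.

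**Figure D1:**
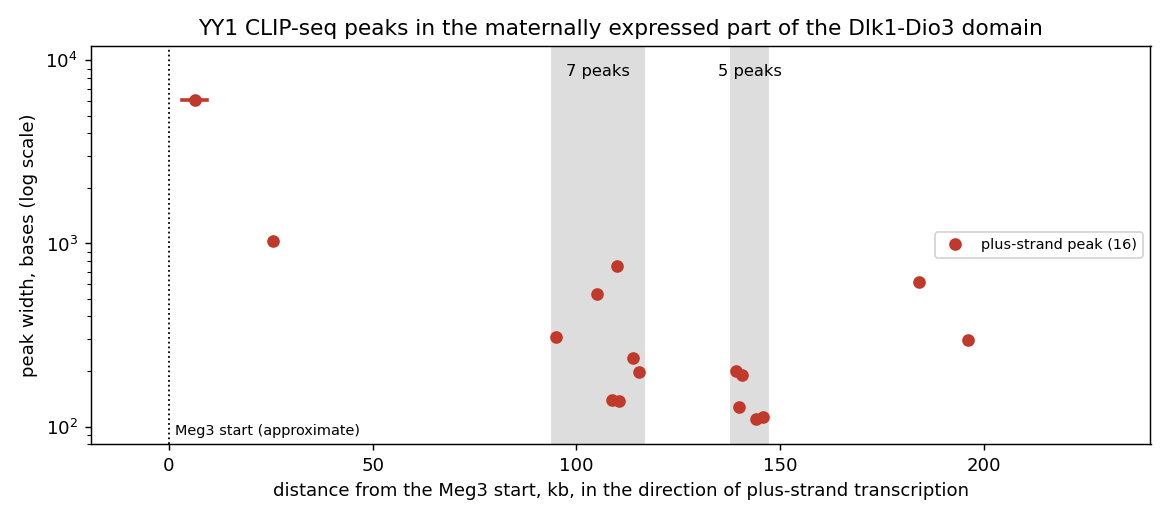
Width of each of the 16 plus-strand peaks (y axis, bases, log scale) against its distance from the approximate Meg3 start (x axis, kb). Grey bands mark the groups of 7 and 5 peaks, in which each gap to the next peak is at most 10 kb. The horizontal bar on a point is the extent of the peak to scale, and the first peak, 6078 bases wide, stands above all others.

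Beyond the long gap lay a group of 7 peaks. Peaks were joined into a group, here called a run, when the gap to the next peak on the strand was at most 10 kb. This run spanned 20.6 kb, from 110874089 to 110894676, or 94.9 to 115 kb after the Meg3 start. In order, its peaks were 308, 530, 139, 755, 137, 236 and 198 bases wide. The widest, at 110888705 to 110889459, had the 2 narrow ones on either side of it, 757 bases before and 157 bases after. The 157 bases were the shortest gap of the domain. The peak of 530 bases lay at 110884039 to 110884568. The run opened with the peak at 110874089 to 110874396 and closed with the one at 110894479 to 110894676. The peak of 236 bases was at 110892837 to 110893072. Gaps within the run had a median of 2244.5 bases and reached 9642 bases, just under the joining limit. With this run included, 12 of the 9528 runs on either strand, and 4 of the 4910 on the plus strand, had 7 or more peaks. The window was picked with its peaks known, so these counts are a description and no measure of how unusual the run is.

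A run of 5 narrow peaks came next, 23.5 kb further on. It spanned 6.97 kb, from 110918155 to 110925119, or 139 to 146 kb after the Meg3 start. In order, the peaks were 201, 128, 191, 110 and 113 bases wide, and none reached the median width of 335 bases of all plus-strand peaks. The run began with the peak at 110918155 to 110918355 and ended with the one at 110925007 to 110925119. The first 3 started 855 and 696 bases apart, followed by steps of 3466 and 1835 bases, so the spacing was not even. Peaks covered 10.7% of this run and 11.2% of the run of 7. In the gene order, snoRNA and miRNA genes fill the stretch between Rian and Mirg. Some of them are close copies of each other, and how reads that map to several copies were placed is not given in the sources used here. No peak was assigned to any of these genes, so whether this affects the narrow peaks was not tested.

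The domain ended with 2 single peaks. The first, at 110962966 to 110963583, was 618 bases wide and lay 37.8 kb after the run of 5, at 184 kb from the Meg3 start. The other, at 110975004 to 110975301, was 298 bases wide, 11.4 kb further on and 196 kb from that start. Both were narrower than the first 2 peaks. Width did not fall steadily along the domain, since the peaks of 530 and 755 bases in the run of 7 were wider than the last peak. The median width was 3553.5 bases in the first 2 peaks, 194.5 bases in the 12 peaks of the runs and 458 bases in the last 2.

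Over all 16 peaks, widths ran from 110 to 6078 bases with a median of 218.5 bases (95% interval 137 to 618 from binomial ranks). All plus-strand peaks had a median of 335 bases (328 to 346), and those of chromosome 12 had 313.5 bases (280 to 348). The interval of the domain holds both of these medians. Of the 16 peaks, 11 were narrower than the median of all plus-strand peaks and 5 were wider. With peaks within 1000 bases joined, 12 were left and their median width was 419 bases, above that of all peaks as deposited. Peaks wider than 1000 bases numbered 2 of 16, or 12.5% (95% Clopper-Pearson interval 1.55 to 38.3), against 8.00% of all plus-strand peaks. Only the first peak exceeded 2000 bases, 6.25% of the 16 (0.158 to 30.2), against 1.28% of all. Peaks narrower than 150 bases numbered 5, or 31.2% (11.0 to 58.7), against 15.6% of all. These 3 intervals hold the shares of all peaks, so at this number of peaks none of the shares stood apart from the background. Intervals cover counting error over peaks of 1 library and treat neighbouring peaks as independent, although several can come from 1 RNA.

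**Figure D2:**
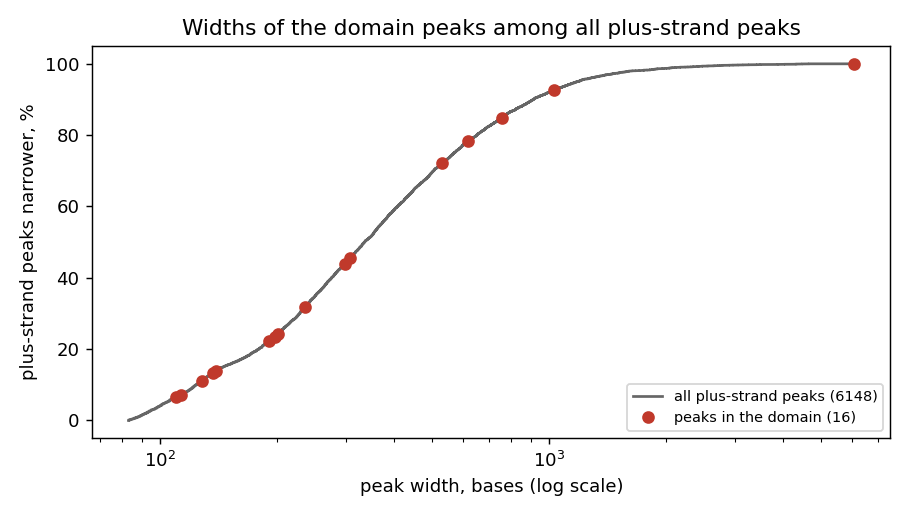
Share of all 6148 plus-strand peaks that are narrower (y axis, percent) than a given width (x axis, bases, log scale), as a grey line, with the 16 peaks of the domain as red points on it. The points spread from 110 bases to 6078 bases, the last at the top end of the distribution, and 11 of 16 lie under the median of 335 bases.

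Spacing was close for most neighbours and wide for a few. The 15 gaps between consecutive peaks had a median of 3240 bases (95% interval 757 to 15765), against 58.5 kb over the 6126 gaps between plus-strand neighbours of all chromosomes (54.7 to 63.3) and 52.3 kb on chromosome 12 (35.6 to 76.7). Of the 15 gaps, 10 were at most 10 kb long, 66.7%, against 20.2% of all plus-strand gaps. A window that is picked for holding many peaks has short gaps by that choice, so this contrast adds nothing to the count. With peaks within 1000 bases joined, the median gap of the domain was 9642 bases. The other 5 gaps measured 11.4 to 68.8 kb and divided the 16 peaks into 6 runs, 2 with several peaks and 4 single peaks. In bins of 10 kb, 9 of 26 held a peak and 17 held none, and 1 bin held 4, the most in any. Peaks covered 4.26% of the window.

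No minus-strand peak lay in the domain. The plus-strand share was 100% of 16 peaks (95% interval 79.4 to 100), against 51.0% of all 12053 peaks (50.1 to 51.9). Rtl1 is read from the strand opposite to Meg3, but no mm9 position was at hand for it, so it is given no count. Among all windows of 260 kb, 60.3% held no peak on either strand. The lack of minus-strand peaks here is therefore no result about Rtl1. The window was picked with its peaks known, so the strand share of the domain is a description and its contrast with all peaks is no test. The intervals also treat peaks as independent, although several can come from the same RNA and then share its strand. The minus strand was bare for 1384 kb around the domain, from the peak that ended at 110273312 to the one that began at 111657608. Distances from the 16 peaks to the nearest minus-strand peak ran from 509 to 690 kb, against a median of 133 kb over all plus-strand peaks (128 to 139). Yet 17.2% of all plus-strand peaks were at least 509 kb from one. Chromosome 12 leaned to the plus strand as a whole, with 310 of 527 peaks or 58.8% (54.5 to 63.1). Without the domain it was 294 of 511 or 57.5% (53.1 to 61.9), so these 16 peaks made little difference to it.

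The domain stood alone on both strands. The stretches of 260 kb directly before and after the window held 0 peaks on either strand. The members nearest to the edges of the window lay 22.5 kb inside its start and 44.7 kb inside its end. The nearest peaks outside it were on the minus strand, 509 kb before the first member and 682 kb after the last. On the plus strand the nearest were 566 kb before, at 110215733 to 110216511, and 752 kb after, at 111727152 to 111728547. Long gaps were common in the library. Of the 11973 gaps between neighbouring peaks of either strand, 10.1% were at least as long as the one before the domain and 7.97% as the one after it. On chromosome 12 these were 61 and 46 of 521 gaps.

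**Figure D3:**
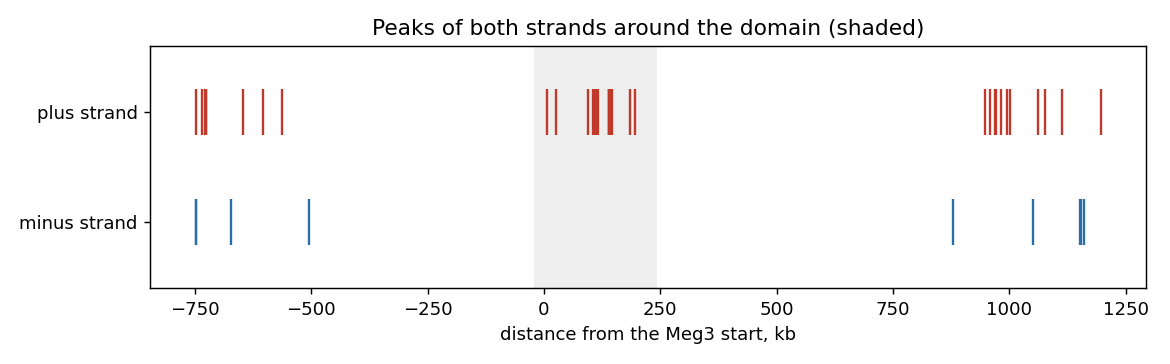
Peaks of the plus strand (red ticks, upper row) and the minus strand (blue ticks, lower row) by distance from the approximate Meg3 start (x axis, kb), with the 260 kb window shaded. The shaded window holds 16 plus-strand and 0 minus-strand peaks, and no peak lies within 509 kb before or 682 kb after them.

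Few stretches of this length held as many peaks. All chromosomes were cut into 10123 windows of 260 kb from position 1, a grid in which the domain is itself a window. Of these, 3 held 16 or more plus-strand peaks (0.0296%, 95% interval 0.00611 to 0.0866) and 4 held as many minus-strand peaks. The domain is 1 of the 3 and was picked with its peaks known. The share and its interval therefore describe the windows and give no probability for the count of the domain, and the same holds for the density below. The edges of this grid coincide with those of the domain. On a grid moved by 130 kb the share with 16 or more plus-strand peaks was 0.0495%. That grid has an edge inside the domain, between its peaks, so the domain is not among the windows counted there. The moved grid therefore says nothing about the count of the domain. Windows without any peak made up 60.3%, and among the 2628 with a plus-strand peak the median was 2. Of the other two plus-strand windows, the one on chromosome 6 (33280001 to 33540000) had 22 plus-strand and 0 minus-strand peaks, and the one on chromosome 13 (23400001 to 23660000) had 20 and 22. The density of the domain was 6.15 plus-strand peaks per 100 kb, against 0.268 on chromosome 12 and 0.241 on the autosomes and chromosome X together.

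Among windows with 10 or more peaks on 1 strand, the domain held the widest single peak of the leading strand. No test goes with this comparison, as all values come from 1 library. There were 44 such windows, by a limit chosen after the counts were seen, and most held fewer peaks on the leading strand than the domain. In 21 of them, 47.7% (32.5 to 63.3), all peaks lay on 1 strand, as in the domain. In none of the other 43 was the widest peak of the leading strand as wide as 6078 bases, and their widest reached 3990 bases. For the windows led by the plus strand this was fixed, as the peak of 6078 bases is the widest plus-strand peak of the library. The widest peak made up 54.9% of the summed width in the domain, against a median of 20.1% in the other 43 and a range of 4.34 to 69.9%. The median width in the domain, 218.5 bases, was above that of 7 of them, which ranged from 124.5 to 1309 bases with a middle value of 496. On chromosome 6 the window with 22 peaks had a median of 475.5 bases and a widest peak of 1437 bases, 10.3% of the summed width. Coverage was 4.26% in the domain, more than in all but 6 of the other 43, and 5.34% in the chromosome 6 window. The median in the other 43 was 2.72%. Without its widest peak the domain was covered to 1.92%, a value not comparable with the others, which keep theirs.

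**Figure D4:**
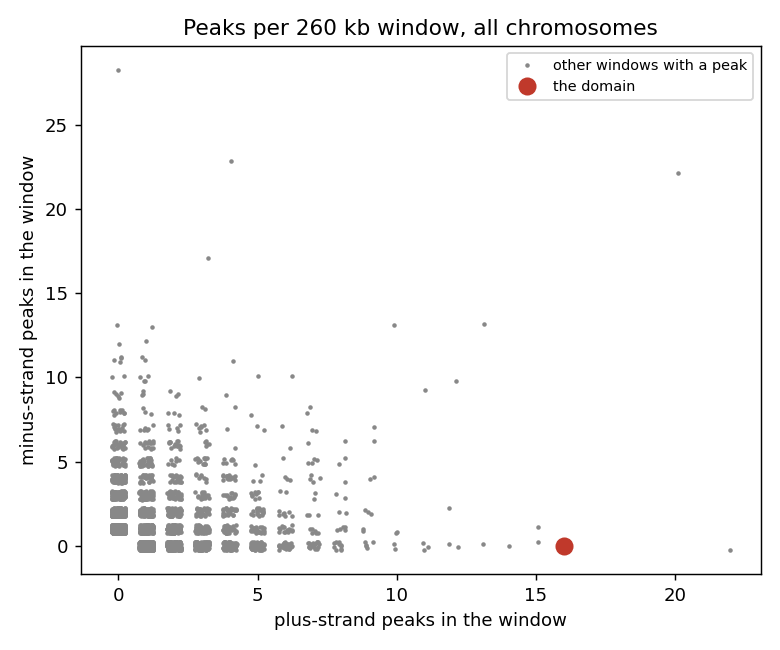
Number of plus-strand peaks (x axis) and minus-strand peaks (y axis) in each 260 kb window that holds a peak, grey points spread slightly at random so that they can be told apart, with the domain in red. The domain lies on the lower edge with 16 plus-strand and 0 minus-strand peaks, and only 1 window with more plus-strand peaks, 22, also has no minus-strand peak.

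The runs were also set beside others of like size by the median width of their peaks. The library held 53 runs of 5 or more peaks on either strand, with a median width per run from 117 to 1648 bases and a middle value of 449. The run of 5 had a median width of 128 bases, and only 5 of the 53, itself included, had one that low. The run of 7 had a median of 236 bases, which 14 of the 53 did not exceed, itself and the run of 5 included. Runs of 5 or more peaks took in 12 of the 16 peaks of the domain, 75%, against 2.57% of all plus-strand peaks. A window picked for holding many peaks has a high share in runs by that choice, so this contrast adds nothing to the count. With the joining limit raised to 50 kb, both runs and the last 2 peaks became a single run of 14 peaks over 101 kb, from 110874089 to 110975301, and the 2 peaks nearest to the Meg3 start stayed apart from it. Of 6385 runs joined in that way, 14 had 14 or more peaks, this one included, and 9 of them were on the plus strand. This too is a description, as the window was picked with its peaks known.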

How the data were processed

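RNA crosslinked to biotin-tagged YY1 was measured in 1 library. The authors deposited 2 peak lists of 3 columns (chromosome, start, end), with no score. Cutadapt, Bowtie, Bowtie2 and SAMtools and the build mm9 are named in the submitters' processing notes, without version or role. Neither the peak caller nor its threshold, nor any use of the control, is given in the sources used here. A higher threshold could narrow, split or drop peaks, which was not tested. The strand of a peak is that of its list's name.

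From the lists, peaks in the window were counted, starts were turned to 1-based, and widths, gaps, covered bases, runs (gaps of at most 10 kb) and windows of 260 kb were computed with scipy 1.17.1, pandas 2.3.3 and numpy 2.4.6 under Python 3.11.15, and drawn with matplotlib 3.10.9. Counting was tested on simulated data, where all 40 planted runs were found. Their gaps were far below the 10 kb limit and the runs far apart, so this checked the code and not the choice of limit. Shares have exact Clopper-Pearson 95% intervals, medians intervals from binomial ranks. The rule for naming was all members, with positions for the 10 widest, the ends of runs and any minus-strand peak. Of 8 other genes of the domain, 7 were in the gene table. They were used as neighbours only, and Begain, Wdr25, Ppp2r5c and Dio3os were given no counts. The region, lists and limits were chosen with earlier results of these data known. Alternatives were the window, the wider 50% of peaks of each strand, joined peaks, other gaps and other windows.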

Additional observations from a re-analysis of the deposited data

How the results depend on the processing

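Of 24 alternative values, 17 stayed within the interval of the reported value, or within 1.5 times the reported count or coverage, and 7 did not. Some of the 7 follow from the change itself, and some of the 17 could not have moved. Keeping only the wider 50% of peaks of each strand left 5 peaks in the domain, with a median width of 755 bases and a median gap of 44635.5 bases. Widening the window by 100 kb on each side added no peak and lowered coverage to 2.41%. Leaving out the widest peak, an alternative chosen after seeing the data, lowered it to 1.92%. Joining runs across 50 kb gave 2 runs in place of 6. Among the windows with a plus-strand peak, 0.114% held 16 or more. The count of 16 was the same with peaks wholly inside the window, with the window started at Meg3, with the wider window and with peaks within 100 bases joined. This was fixed in advance, as no peak lay near the edges of the window or in the 260 kb on either side. The shortest gap was 157 bases, so joining within 100 bases could change nothing. It was 12 with peaks within 1000 bases joined, with a median width of 419 bases and a median gap of 9642 bases, both within the wide intervals of the reported medians. On the offset grid of windows, 0.0495% held 16 or more. An edge of that grid divides the domain, so these are other windows and the value is no check on the domain. All peaks were on the plus strand in each alternative run for the share, which could not change without a minus-strand peak in the window or its flanks. No paired analysis was possible because the YY1 group has 1 library. With no read depth, bound RNA below the authors' threshold cannot be seen in the bare stretches.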
